A study of Mus musculus with 6 samples.

Results

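The genes described here are 7 marker genes of the heart atria, *Myl4*, *Myl7*, *Sln*, *Mybphl*, *Dkk3*, *Bmp10* and *Stard10*, read in 6 libraries of heart ventricle. They are 7 of the 54232 genes listed in the count files, and all 7 were found by Ensembl identifier. They were selected on earlier values of the same 6 mice, in which several of them varied together, so their levels and fold changes are given as a description and no test is made of them.

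The samples were heart ventricles of wild-type C57BL/6J mice that had all been fed western diet (WD) for 15 weeks. In the WD + Tributyrin group, 3 mice were then fed by needle with Tributyrin, a triglyceride that releases butyrate, at 5 g/kg in a cycle of days on and off over 3 weeks, and in the WD + Vehicle group 3 mice received vehicle, which the labels name as PBS. The comparison asks how ventricular transcripts differed with Tributyrin under a diet that both groups shared. Each library came from 1 mouse. Age and sex of the 6 mice are not given in the labels, and nothing in them says how the ventricle was cut from the atria. With no more information on cages or litters, an error over mice measures the spread between these samples.

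The atria and the ventricles of the heart build their contractile apparatus from partly different genes. Atrial myocytes use their own myosin light chains, hold sarcolipin as a brake on the calcium pump of the sarcoplasmic reticulum, and secrete natriuretic peptides and the growth factor BMP10, while ventricular myocytes use other light chains and rely on phospholamban. In the adult mouse ventricle most of the atrial set is low. In bulk samples, fewer cells of a type and less RNA per cell cannot be told apart.

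The libraries held between 20369746 and 32734485 counts on genes, and between 23.6% and 28.8% of the counts were mitochondrial. Levels below are CPM, read counts set to a common library size after TMM scaling, and 14133 genes passed the filter on low counts. *Myl2* and *Myl3*, the ventricular light chains, were abundant, between 5748 and 6792 CPM and between 4171 and 5041 CPM in the 6 mice. Of 9 ventricular markers 8 passed the filter, but not all were abundant. *Hey2* stood between 3.47 and 5.72 CPM and *Kcne1* between 2.67 and 9.455 CPM. *Hand1* was at 0 in every library. All 7 atrial genes are protein coding. *Myl4* lies at chr11:104550663-104595753, *Myl7* at chr11:5896637-5898782, *Sln* at chr9:53850164-53854560, *Mybphl* at chr3:108364911-108380057, *Dkk3* at chr7:112116017-112159057, *Bmp10* at chr6:87428994-87437677 and *Stard10* at chr7:101317086-101346626 (GRCm38). *Myl7* and *Dkk3* are on the minus strand and the others on the plus strand. *Myl4*, *Mybphl* and *Stard10* overlap other annotated genes, and none of those held more than 12 counts in a library.

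Promoter sequence was available for 5 of the 7 genes (RefSeq, GRCm38.p6) and is shown for *Myl7* and *Mybphl*, whose profiles over the mice were closest of all pairs, and for *Bmp10*, which was almost silent in the same tissue. *Sln* and *Dkk3* had no entry. The *Myl4* entry belongs to its most upstream start, and other transcripts of the gene start further in, so it is not shown. Each line holds the 250 bases before the transcription start, 5′ to 3′ on the strand of the gene, and capitals mark the motif matches. The positions are chr11:5898783-5899032 for *Myl7*, chr3:108364661-108364910 for *Mybphl* and chr6:87428744-87428993 for *Bmp10*.
Myl7: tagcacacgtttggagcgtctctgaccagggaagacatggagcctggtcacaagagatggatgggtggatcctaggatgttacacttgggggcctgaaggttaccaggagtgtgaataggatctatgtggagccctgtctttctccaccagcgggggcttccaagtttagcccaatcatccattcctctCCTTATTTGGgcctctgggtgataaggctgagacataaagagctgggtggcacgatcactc
Mybphl: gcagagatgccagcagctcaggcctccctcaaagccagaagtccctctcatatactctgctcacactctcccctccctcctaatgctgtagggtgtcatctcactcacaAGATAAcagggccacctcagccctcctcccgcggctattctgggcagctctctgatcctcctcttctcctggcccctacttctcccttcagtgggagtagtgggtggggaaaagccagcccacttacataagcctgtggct
Bmp10: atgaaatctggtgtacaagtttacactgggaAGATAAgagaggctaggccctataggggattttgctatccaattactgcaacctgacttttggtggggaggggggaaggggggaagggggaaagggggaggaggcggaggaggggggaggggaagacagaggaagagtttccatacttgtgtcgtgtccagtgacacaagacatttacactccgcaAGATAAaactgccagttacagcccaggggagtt

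The capitals in *Myl7* are a CArG box, the element that serum response factor binds, which began 61 bases before the start. The capitals in *Mybphl* and *Bmp10* are the GATA site AGATAA, which began 141 bases before the start in *Mybphl* and 219 and 33 bases before it in *Bmp10*. Windows from 250 bases before to 50 after the start were searched on both strands for 6 motifs. Of 32851 such windows, 1.63% held the CArG box and 11.2% held AGATAA. The other motifs were TATAAA (13.6% of windows), the T-box half-site AGGTGT (13.7%), the nuclear receptor half-site AGGTCA (16.3%) and the MEF2 site, CTA and TAG 4 bases apart (3.69%), and none of them was found in the windows of the 5 genes. No motif match overlapped another. The *Myl4* and *Stard10* windows held none of the 6 motifs. A match is a run of letters, and binding was not measured.

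*Myl4* encodes the essential light chain of atrial myosin, which sits beside the motor domain. It was at 75.0, 85.3 and 9.36 CPM in vehicle mice 1, 2 and 3 and at 10.1, 27.04 and 9.52 CPM in Tributyrin mice 1, 2 and 3. Vehicle mice 1 and 2 stood far above all others, and vehicle mouse 3 was the lowest of the 6 mice, so the groups overlapped. The counting interval of vehicle mouse 3 (8.10 to 10.8 CPM) overlapped those of Tributyrin mice 1 and 3 (8.99 to 11.4 and 8.30 to 10.9 CPM). Which of these 3 mice was lowest is therefore not settled. The group levels were 56.6 ± 41.2 CPM with vehicle and 15.6 ± 9.94 CPM with Tributyrin (SD, n = 3 each). The edgeR log2 fold change, Tributyrin over vehicle, was −1.86 (SE 0.64).

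*Myl7* encodes the regulatory light chain of atrial myosin, whose phosphorylation tunes contraction. Its level was 66.3, 56.3 and 4.21 CPM in the vehicle mice and 7.36, 18.3 and 7.48 CPM in the Tributyrin mice. The order of the mice was close to that of *Myl4*: vehicle 1 and 2 were high, Tributyrin 2 came next, and vehicle 3 was lowest. The highest mouse was at 15.8 times the lowest for *Myl7* and at 9.11 times for *Myl4*. With 89 counts in vehicle mouse 3, the 95% counting interval of its *Myl7* level ran from 3.38 to 5.18 CPM, below the level of every other mouse. The group levels were 42.3 ± 33.4 CPM with vehicle and 11.04 ± 6.28 CPM with Tributyrin (SD, n = 3 each), with a log2 fold change of −1.94 (SE 0.70).

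Sarcolipin, the product of *Sln*, is a small membrane peptide that inhibits the calcium pump SERCA. *Sln* had the largest ratio of the highest to the lowest mouse among the 6 tested genes, 52.6, with 5 counts in the lowest. It was at 12.4, 6.80 and 0.236 CPM with vehicle and at 1.71, 1.64 and 0.739 CPM with Tributyrin. The 5 counts were in vehicle mouse 3 (95% Poisson interval 0.0768 to 0.552 CPM), and vehicle mouse 1 held 315. The intervals cover counting error only. The group levels were 6.49 ± 6.11 CPM with vehicle and 1.36 ± 0.540 CPM with Tributyrin (SD, n = 3 each), and the log2 fold change was −2.24 (SE 0.80). For *Sln* the Tributyrin mice differed from the order seen for the light chains, since Tributyrin mouse 1 was level with Tributyrin mouse 2.

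*Mybphl* encodes a myosin-binding protein of the atrial sarcomere that is also found in the ventricular conduction system. Its level was 6.99, 5.50 and 0.189 CPM with vehicle and 0.569, 1.498 and 0.783 CPM with Tributyrin. Vehicle mice 1 and 2 held 177 and 187 counts and vehicle mouse 3 held 4, which was again the lowest (95% interval 0.0515 to 0.484 CPM). The interval of vehicle mouse 3 overlapped those of Tributyrin mice 1 and 3 and lay below that of Tributyrin mouse 2. The group levels were 4.23 ± 3.58 CPM and 0.950 ± 0.487 CPM (SD, n = 3 each), and the log2 fold change was −2.17 (SE 0.77).

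*Dkk3*, which encodes a secreted glycoprotein of the Dickkopf family, behaved otherwise. It was at 18.6, 18.7 and 12.2 CPM with vehicle and at 2.60, 4.49 and 11.2 CPM with Tributyrin. All 3 vehicle mice were above all 3 Tributyrin mice, though vehicle mouse 3 and Tributyrin mouse 3 lay next to each other and their 95% counting intervals overlapped (10.8 to 13.8 and 9.85 to 12.6 CPM). The group levels were 16.5 ± 3.72 CPM and 6.09 ± 4.51 CPM (SD, n = 3 each), and the log2 fold change was −1.47 (SE 0.40). Vehicle mouse 3, at or near the bottom for the sarcomere genes and *Sln*, held 2.00 times the Tributyrin mean of *Dkk3*.

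*Stard10* encodes a lipid transfer protein for phospholipids. Its level was 33.8, 27.6 and 23.1 CPM with vehicle and 26.0, 30.1 and 27.4 CPM with Tributyrin, so the Tributyrin mice lay within the vehicle range. Means were 28.2 ± 5.39 CPM and 27.8 ± 2.06 CPM (SD, n = 3 each), with a log2 fold change of −0.02 (SE 0.13). *Bmp10*, the atrial ligand of the receptor ALK1, had 1 count in vehicle mouse 1, 1 in vehicle mouse 2 and 0 in the other 4 mice. It did not pass the filter, and 3 counts, the limit that a count of 0 allows, would be between 0.0883 and 0.142 CPM in these libraries. A difference in *Bmp10* was not detectable at this depth.

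**Figure D1:**
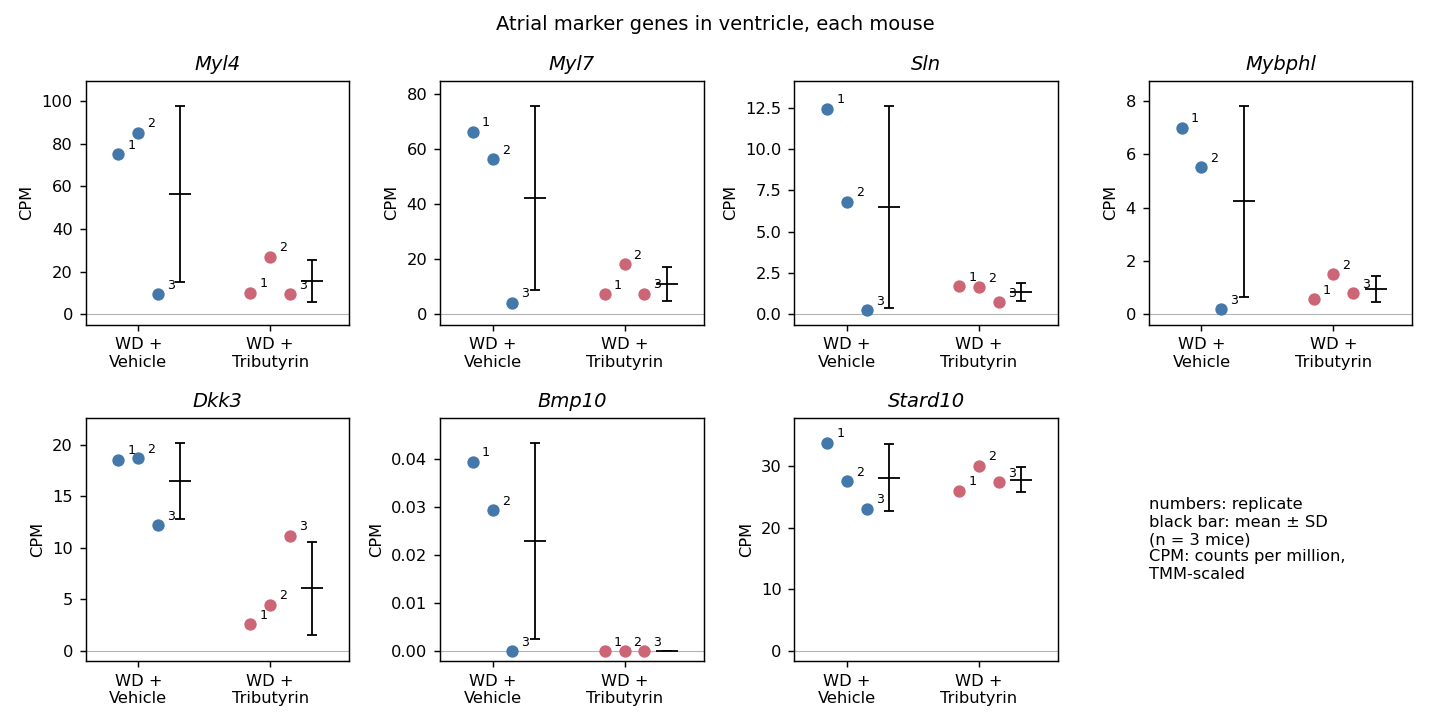
CPM of each of the 7 atrial genes (y axis, linear, a scale per gene) in the WD + Vehicle and WD + Tributyrin mice; each point is 1 mouse with its replicate number, and the black bar is the mean ± SD of 3 mice. For *Myl4*, *Myl7*, *Sln* and *Mybphl* vehicle mice 1 and 2 stand high and vehicle mouse 3 is lowest, while only *Dkk3* among the 6 tested genes has groups that do not overlap.

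Per kilobase of annotated exon, the mean level over the 6 mice was highest for *Myl7* (45.2 CPM per kb), followed by *Stard10* (11.6), *Myl4* (7.78), *Dkk3* (3.36), *Sln* (2.98), *Mybphl* (2.03) and *Bmp10* (0.00256). The exon lengths join all annotated transcripts, which lowers the value of genes with many, such as *Myl4*. Each pair of neighbours in this order differed by less than the larger of their SDs over the 6 mice, which were 46.5 for *Myl7*, 7.54 for *Myl4*, 3.63 for *Sln* and 2.28 for *Mybphl*.

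Of the 7 genes, 6 passed the filter and all 6 estimates were below 0, that of *Stard10* by less than its SE. With edgeR's quasi-likelihood test at an FDR of 10%, 0% of the 14133 genes were called, none of the 7 among them, and 600 genes had an unadjusted p under 0.05. On the same genes limma-voom called 0, with 605 at an unadjusted p under 0.05. DESeq2 called 11 genes when run without that filter and 16 with it, none of the 7 among them. For 1 of the 6 genes, *Dkk3*, every Tributyrin mouse was below every vehicle mouse, against 4.61% of all genes tested, and none had every Tributyrin mouse above, against 4.34%. Since the 7 genes were chosen on these values, nothing is read from these counts.

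The SE of an edgeR estimate was taken as its size divided by the square root of the F value of the quasi-likelihood test. That test shares information on spread across genes, so the SE is not set by the 6 values of the gene alone. For *Sln* it was 0.80, against 0.203 without the filter, 1.248 in DESeq2 and 1.266 in limma-voom, where the estimate was −1.345. The spread within the groups was wide. The SD of log2 CPM over the 6 mice was 1.49 for *Myl4*, 1.65 for *Myl7*, 1.96 for *Sln*, 1.84 for *Mybphl*, 1.14 for *Dkk3* and 0.19 for *Stard10*, and that of the median gene was 0.15. Of all genes tested, 8 had a larger SD than *Sln*, while 61.0% had a smaller SD than *Stard10*. The genes were chosen on these mice and *Sln* had 5 counts in vehicle mouse 3, so these places are a description only. For 5 of the 6 tested genes the spread was wider within WD + Vehicle. There the SD was 1.78 for *Myl4*, 2.22 for *Myl7*, 2.86 for *Sln*, 2.64 for *Mybphl* and 0.28 for *Stard10*, against 0.84, 0.75, 0.64, 0.66 and 0.10 within WD + Tributyrin. *Dkk3* had the opposite form, with an SD of 0.35 with vehicle and 1.05 with Tributyrin.

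The size of the group difference depends on the scale. As a difference of mean log2 CPM, in which a low mouse weighs as much as a high one, it was −1.503 for *Myl4*, −1.32 for *Myl7*, −1.14 for *Sln*, −1.19 for *Mybphl*, −1.66 for *Dkk3* and −0.00 for *Stard10*. On this scale *Dkk3* had the largest difference, whereas in the edgeR fit, which compares mean levels, it was *Sln*. Leaving out Tributyrin mouse 2 took the edgeR estimate of *Myl4* to −2.53. Leaving out vehicle mouse 3 took the edgeR estimates of *Sln* and *Mybphl* to −2.78 and −2.69, and leaving out vehicle mouse 1 took that of *Sln* to −1.42 and that of *Myl7* to −1.47. The *Dkk3* estimate was −2.22 without Tributyrin mouse 3 and −1.10 without Tributyrin mouse 1.

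The joint spread was summed in an atrial index, the mean over the 7 genes of log2 CPM minus the mean of the gene over the 6 mice. The index was 1.49, 1.25 and −1.20 in the vehicle mice and −0.81, −0.11 and −0.62 in the Tributyrin mice. The vehicle mice thus held both ends of the scale, and all 3 Tributyrin mice lay between them. The group means were 0.51 ± 1.49 and −0.51 ± 0.36 (SD, n = 3 each), a difference of −1.03 that was smaller than the SD within WD + Vehicle. The range was 2.68 within WD + Vehicle and 0.70 within WD + Tributyrin. The difference was −1.88 without vehicle mouse 3, −0.54 without vehicle mouse 1 and −0.66 without vehicle mouse 2. In summed level, the 7 genes took 213, 200.2 and 49.3 CPM in the vehicle mice and 48.4, 83.0 and 57.1 CPM in the Tributyrin mice.

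**Figure D2:**
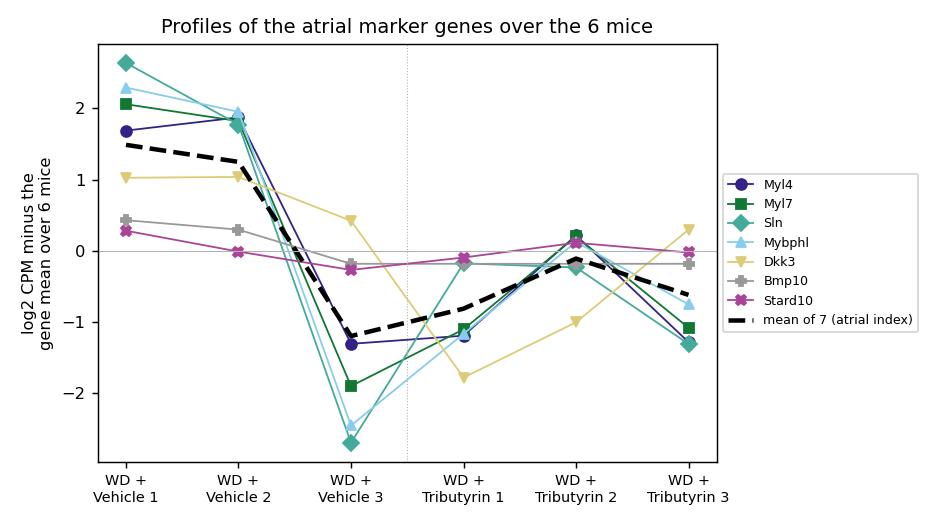
Log2 CPM of each atrial gene minus its mean over the 6 mice (y axis) in each mouse (x axis), with the mean of the 7 genes as a dashed line. *Myl4*, *Myl7*, *Sln* and *Mybphl* run close together from high in vehicle mice 1 and 2 to low in vehicle mouse 3, whereas *Dkk3* is low in Tributyrin mice 1 and 2 and *Stard10* and *Bmp10* stay near 0.

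*Myl4*, *Myl7*, *Sln* and *Mybphl* formed a group that was noticed after the values were seen and is described without a test. For each of the 4 genes vehicle mice 1 and 2 were the highest pair and vehicle mouse 3 was the lowest in CPM. Only for *Myl7* did the counting interval of vehicle mouse 3 lie below those of all other mice. Per read of *Myl3* in the same library, *Myl4* was lowest in Tributyrin mouse 3. The order in CPM was found in 139 of the 14133 genes tested (0.984%). Since the 4 genes were chosen on these mice, nothing is read from that share. *Dkk3* shared the highest pair but not the lowest mouse. The root-mean-square (RMS) difference between centred profiles was smallest for *Myl7* and *Mybphl* (0.29 on the log2 scale) and for *Myl4* and *Myl7* (0.30). Between these 4 genes it reached at most 0.82, for *Myl4* and *Sln*, while *Dkk3* differed from them by 1.19 to 1.76. The fold between mice was not the same for the 4 genes. Vehicle mouse 1 stood at 8.02 times vehicle mouse 3 for *Myl4*, at 15.8 times for *Myl7*, at 37.0 times for *Mybphl* and at 52.6 times for *Sln*. The last 2 folds divide by 4 and 5 counts and are uncertain. With a prior count of 5, the highest mouse stood at 8.95, 15.1, 19.1 and 29.8 times the lowest for *Myl4*, *Myl7*, *Mybphl* and *Sln*. Tributyrin mouse 2 stood at 2.67, 2.48 and 2.63 times Tributyrin mouse 1 for *Myl4*, *Myl7* and *Mybphl*, and at 0.96 times for *Sln*.

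Each of the 4 genes has a counterpart that the ventricle uses, and the ratio within a library does not depend on library size. *Myl7* stood at 10.7, 9.55 and 0.714 reads per 1000 reads of *Myl2* in the vehicle mice and at 1.17, 3.18 and 1.10 in the Tributyrin mice. *Myl4* stood at 17.2, 18.5 and 2.18 reads per 1000 of *Myl3* with vehicle and at 2.24, 6.48 and 1.89 with Tributyrin. In these ratios vehicle mouse 3 was again among the Tributyrin mice or below them. *Sln* was at 9.01, 5.15 and 0.183 reads per 1000 of *Pln*, which encodes phospholamban, with vehicle and at 1.04, 1.16 and 0.450 with Tributyrin. *Mybphl* was at 1.92, 1.39 and 0.0482 reads per 1000 of *Mybpc3*, the cardiac myosin-binding protein C gene, with vehicle and at 0.168, 0.431 and 0.201 with Tributyrin. The log2 fold changes of the counterparts themselves were 0.07 (SE 0.08) for *Myl2*, 0.05 (SE 0.08) for *Myl3*, 0.24 (SE 0.08) for *Pln* and −0.10 (SE 0.08) for *Mybpc3*, and edgeR's quasi-likelihood test gave each an adjusted p of 0.999. *Pln*, by which *Sln* is divided, was higher in every Tributyrin mouse than in any vehicle mouse, as were 4.34% of all genes tested.

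**Figure D3:**
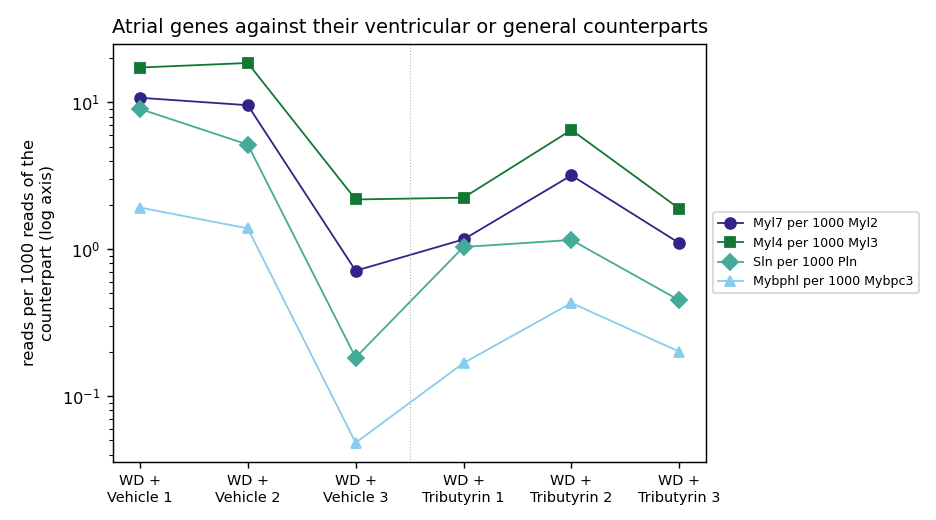
Reads of 4 atrial genes per 1000 reads of the counterpart gene in the same library (y axis, log scale) in each mouse (x axis). All 4 ratios are high in vehicle mice 1 and 2, and vehicle mouse 3 lies below every Tributyrin mouse for *Myl7*, *Sln* and *Mybphl* and just above Tributyrin mouse 3 for *Myl4*.

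A further 18 genes known for atrial expression or atrial functions, outside the 7, were listed with earlier results of these data known. Of these, 16 passed the filter. Estimates were higher for 8 and lower for 8, with a median log2 fold change of −0.08 against −0.00 over all genes tested, and edgeR called none of them at an FDR of 10%. The median of the 6 tested genes of the first list was −1.90. *Nppa*, the gene of atrial natriuretic peptide, was at 21.05, 18.4 and 39.8 CPM with vehicle and at 11.2, 15.8 and 27.7 CPM with Tributyrin (log2 fold change −0.53, SE 0.33). Vehicle mouse 3, among the lowest for the light chains, was the highest for *Nppa*, and the estimate without it was −0.12. *Kcnj3*, which encodes a subunit of the acetylcholine-gated potassium channel, stood between 72.0 and 96.6 CPM, and *Kcna5*, another potassium channel gene, between 28.2 and 38.5 CPM. *Tbx5*, which encodes a T-box factor of the atria and left ventricle, stood between 25.8 and 34.4 CPM.

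Vehicle mice 1 and 2 were the highest pair for 5 of the 16 tested genes, *Nr2f1*, *Nr2f2*, *Cacna2d2*, *Cpne5* and *Nppb*, against 4.64% of all genes tested, and for none of the 5 was vehicle mouse 3 the lowest. Of the 16, 3 had every Tributyrin mouse below every vehicle mouse, *Nppb*, *Cacna2d2* and *Nr2f2*, against 4.61% of all genes tested, and none had every one above, against 4.34%. The highest pair was described after the values were seen, and the list was drawn up with earlier results known. Nothing is therefore read from these counts. *Nppb*, the gene of B-type natriuretic peptide, was at 67.5, 87.95 and 63.4 CPM with vehicle and at 16.4, 44.1 and 49.0 CPM with Tributyrin (log2 fold change −1.004, SE 0.31, edgeR adjusted p 0.999). *Cacna2d2*, a calcium channel subunit gene, was at 7.70, 10.1 and 6.38 CPM with vehicle and at 2.28, 5.92 and 3.57 CPM with Tributyrin (−1.05, SE 0.29, edgeR adjusted p 0.999). Like *Dkk3*, both were lowest in Tributyrin mouse 1. DESeq2 on the same genes, an alternative added after the data were seen, gave *Cacna2d2* an adjusted p of 0.0996. *Nr2f2*, which encodes the atrial identity factor COUP-TFII, differed little, with 10.6 to 11.04 CPM with vehicle and 9.21 to 9.96 CPM with Tributyrin. *Cpne5*, a copine gene, was at 2.92, 4.65 and 1.42 CPM and 0.498, 2.26 and 1.39 CPM (−1.14, SE 0.49, edgeR adjusted p 0.999). Without Tributyrin mouse 2 its estimate was −1.73. *Hamp*, the hepcidin gene, did not pass the filter and had 16, 29 and 0 counts with vehicle and 3, 7 and 5 with Tributyrin.

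**Figure D4:**
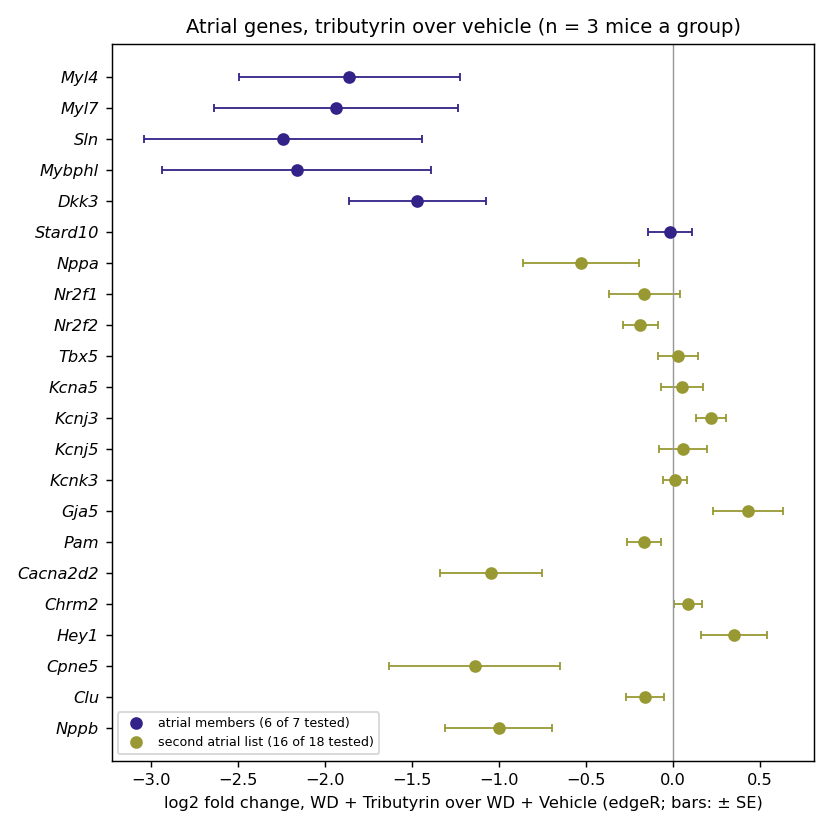
Log2 fold change, WD + Tributyrin over WD + Vehicle (x axis), from the edgeR fit for the 6 tested atrial genes and the 16 tested genes of the second atrial list; bars are ± SE with 3 mice a group. The first list, chosen on these mice, lies between −2.24 and −0.02, and the second, drawn up with earlier results known, between −1.14 and 0.43.

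Binding partners, family members and pathway genes of the 7 genes were read in the same way. Of 46 such genes 45 were found and 37 passed the filter, with 18 estimates higher and 19 lower, a median log2 fold change of −0.00 and none past an FDR of 10%. Of the 37, 2 (*Mybpc2* and *Smad1*) had every Tributyrin mouse below every vehicle mouse, against 4.61% of all genes tested. Every Tributyrin mouse was above every vehicle mouse for 3 (*Pln*, *Eng* and *Stard5*), against 4.34%. With so few genes, nothing is read from these counts. For the calcium pump that sarcolipin inhibits, *Atp2a2* stood between 14140 and 16470 CPM. *Pln* was higher in every Tributyrin mouse than in any vehicle mouse, with 1380, 1320 and 1290 CPM with vehicle and 1649, 1416 and 1644 CPM with Tributyrin (log2 fold change 0.24, SE 0.08, edgeR adjusted p 0.999). In the myosin-binding protein family of *Mybphl*, *Mybpc2* was lower in every Tributyrin mouse than in any vehicle mouse, at 20.6, 30.9 and 28.98 CPM with vehicle and 6.65, 20.2 and 12.6 CPM with Tributyrin (−1.03, SE 0.31, edgeR adjusted p 0.999). *Mybpc2* did not share the low level of *Mybphl* in vehicle mouse 3.

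The other Dickkopf genes were near or at 0: *Dkk1* and *Dkk4* had no count in any library, and *Dkk2* had 3 to 9 counts. The receptor genes for BMP10 were well expressed although the ligand gene was not, with *Acvrl1*, which encodes ALK1, between 29.1 and 35.9 CPM and *Bmpr2* between 95.3 and 136 CPM. Their estimates were −0.00 (SE 0.10) and 0.05 (SE 0.11). *Id1*, *Id2* and *Id3*, which BMP signals induce, had estimates of 0.21 (SE 0.20), 0.46 (SE 0.19) and 0.18 (SE 0.13) and groups that overlapped. Of the other lipid transfer genes in the family of *Stard10*, *Stard7* stood between 197.8 and 229 CPM and *Stard3* between 19.8 and 27.6 CPM.

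Markers of other cell types and tissue pieces were compared with the atrial pattern mouse by mouse, and their part in it was not tested. Outside the 7 genes, the list means of centred log2 CPM lay between −1.05 (valve and cartilage) and 0.72 (blood), both in Tributyrin mouse 1. The ventricular list summed to 10600 to 10880 CPM with vehicle and 10280 to 12140 CPM with Tributyrin, and the general cardiomyocyte list to 69500 to 71740 and 65980 to 73800 CPM. Most of the ventricular sum was *Myl2* (5748 to 6792 CPM) and *Myl3* (4171 to 5041 CPM). The centred mean of the ventricular list was −0.12, 0.01 and 0.20 with vehicle and −0.19, 0.05 and 0.05 with Tributyrin. The list for the sinoatrial node and conduction system summed to 722 to 748 and 691 to 768 CPM. The centred mean of this list was 0.12, 0.10 and −0.01 with vehicle and −0.14, −0.00 and −0.07 with Tributyrin. *Isl1*, a defining gene of the node, was at 0 in every library. Other genes of the list were detected, such as *Hcn4* at 19.8 to 32.6 CPM and *Tbx3* at 11.9 to 15.9 CPM. *Vsnl1*, also on the list, did not pass the filter. It had 7, 28 and 0 counts with vehicle and 0, 6 and 2 with Tributyrin. The presence of nodal tissue was not tested. The vessel and smooth muscle list summed to 1768 to 2127 and 1749 to 2201 CPM, of which *Des*, also a cardiomyocyte gene, held 1496 to 1832 CPM. All 8 estimates of this list were above 0, and *Myh11*, the smooth muscle myosin gene, was at 35.6 to 38.9 CPM with vehicle and 40.7 to 73.0 CPM with Tributyrin (log2 fold change 0.59, SE 0.17, edgeR adjusted p 0.999). The blood list, at 490 to 696 and 383 to 941 CPM, was highest in Tributyrin mouse 1. In the centred mean of the blood list, vehicle mouse 3 stood above vehicle mice 1 and 2, at 0.31 against −0.10 and −0.17.

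The order of the mice for *Dkk3* was set beside that of another list. The list for valve and cartilage was at 77.8, 89.0 and 103 CPM with vehicle and 48.7, 68.4 and 83.2 CPM with Tributyrin. Its centred mean was 0.39, 0.38 and 0.42 with vehicle and −1.05, −0.50 and 0.36 with Tributyrin. In the Tributyrin mice this is the order of *Dkk3*, whose centred values were −1.78, −1.003 and 0.30. *Nppa* and *Nppb* had the same order there, and its share among all genes was not counted. In the vehicle mice the centred means of the list were close to each other, and its tested genes had no common order. Among the vehicle mice *Chad*, *Nfatc1* and *Postn* were highest in mouse 3. *Cytl1*, *Comp* and *Hapln1* were lowest there, as was *Dkk3*, and *Prg4* lay between. Of 7 valve and cartilage genes tested, 6 estimates were lower and 1 higher, with a median of −0.76, and *Acan* and *Col2a1*, which define cartilage, stayed under 0.35 CPM. The part of such tissue in the *Dkk3* values was not tested.

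**Figure D5:**
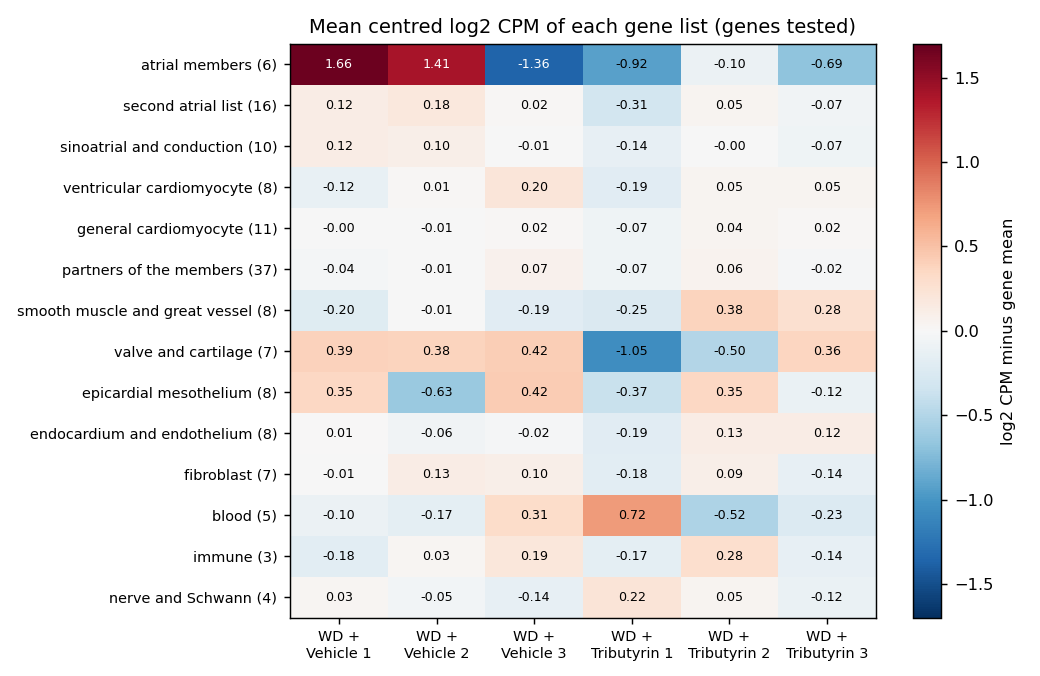
Mean over the tested genes of each list (number in parentheses) of log2 CPM minus the gene mean, for each list (rows) and mouse (columns), in colour and as printed values. The 6 tested atrial genes run from 1.66 in vehicle mouse 1 to −1.36 in vehicle mouse 3, the second atrial list stays between −0.31 and 0.18, and the valve and cartilage list is lowest in Tributyrin mouse 1.

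Likeness to the atrial profile was measured for every tested gene as the RMS difference between its centred log2 CPM and the mean of the 6 tested atrial genes over the 6 mice. Those 6 genes are part of the mean and were chosen on these mice, so nothing is read from their own ranks. *Myl4* (0.35), *Myl7* (0.38) and *Mybphl* (0.57) ranked 1, 2 and 4, *Sln* ranked 35, and *Dkk3* and *Stard10* ranked 578 and 583. The median over all genes tested was 1.16, close to the 1.15 of a flat profile. Among genes outside the 7, the nearest were *Gcgr*, the glucagon receptor gene (0.57), *Cilp2*, a matrix protein gene (0.58), and *Egf*, the epidermal growth factor gene (0.63). *Egf* was the only 1 of the 15 nearest above 10 CPM, at 25.8, 26.3 and 11.2 CPM with vehicle and 11.4, 13.6 and 8.04 CPM with Tributyrin (log2 fold change −0.94, SE 0.29, edgeR adjusted p 0.999). *Cilp2* was at 3.63, 2.59 and 1.09 CPM with vehicle and 0.427, 1.22 and 0.522 CPM with Tributyrin. *Gcgr* had 21, 39 and 6 counts with vehicle and 3, 11 and 8 with Tributyrin. The others were *Ripor3*, *Gm43682*, *Btla*, *Mettl11b*, *Gm38534*, *Sphkap*, *Cpne5*, *Pcdhb7*, *Tmem35b*, *Ppp1r1b*, *Gm16675* and *Lmntd1*, at an RMS difference of 0.66 to 0.74. *Cpne5* was the only gene of the second atrial list among the 15.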

How the data were processed

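Ventricle RNA of 6 mice was sequenced from a stranded mRNA library kit. The authors deposited raw read counts per Ensembl gene, 1 file per mouse. Per the labels, cutadapt 1.13, STAR, HTSeq 0.6.1p1 and DESeq2 1.14.1 were used with the mm10 build, while strand setting and annotation release were not given in the sources used. Groups were taken from the sample labels.

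Symbols and positions came from GENCODE M21 (54165 of 54232 identifiers matched). Libraries were scaled by TMM and compared with edgeR's quasi-likelihood test (edgeR 4.0.16, limma 3.58.1 and DESeq2 1.42.0 in R 4.3.3), with filterByExpr (minimum count 10, minimum total 15), no covariate and Benjamini-Hochberg adjustment over 14133 genes at an FDR of 10%. For the 7 genes the estimate and its SE were kept without p. Log2 CPM used a prior count of 2. Counting intervals were exact Poisson at 95%. Tables and plots were made with Python 3.11.15. The steps were tested on simulated data.

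The 7 genes, the lists and the rule for named genes (members, tested genes of the second atrial and partner lists, markers that define cell types, and the 15 nearest profiles) were chosen with earlier results of these data known. *Hamp* and genes listed at 0 or with few counts were named outside the rule after their values were seen. Deviations of same-numbered mice from their group means correlated at 0.21, 0.04 and 0.01 for replicates 1, 2 and 3, and the labels state no pairing. Alternatives were other scalings, filters, tools and prior counts, a block for the replicate number, and fits without 1 mouse at a time. DESeq2 on the genes of the edgeR filter was added after the data were seen.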

Additional observations from a re-analysis of the deposited data

How the results depend on the processing

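The 0 genes past an FDR of 10% became 167 without the filter on low counts, 11 in DESeq2 on 25578 genes, 16 in DESeq2 on the genes of the edgeR filter (an alternative chosen after seeing the data), 2 with the replicate number as a block and 0 to 3 when each mouse was left out (3 without Tributyrin mouse 3, 0 without vehicle mouse 2, 2 without any other). Among the genes of all lists, the 0 past that FDR became 19 without the filter, of which 5 were among the 7 atrial genes, 1 (*Cacna2d2*) in DESeq2 on the filtered genes, and 0 to 2 when each mouse was left out. The 2 were *Sln* and *Mybphl* without vehicle mouse 3, and without Tributyrin mouse 3 it was 1, *Dkk3*. These genes were chosen on these mice, so the calls are no independent evidence. Without the filter edgeR's adjusted p was 0.00071 for *Nppa* (log2 fold change −0.53), 9.5e-08 for *Cacna2d2* (−1.05 in that fit), 0.00077 for *Cpne5* (−1.14) and 6.2e-23 for *Nppb* (−1.003), against 0.999 with it. The cause of these changes was not tested. The replicate block changed no other call, and the labels do not say whether the numbers pair the mice. Over each mouse left out, the median of the 6 atrial genes ran from −2.46 to −1.44, that of the second atrial list from −0.15 to −0.03, and the difference in atrial index from −1.88 to −0.54. The median of the atrial genes was −1.43 in limma-voom. With a filter at a mean CPM of 5, *Sln*, *Mybphl*, *Nr2f1* and *Cpne5* were not tested. The sign differed from the reported one in 17 of 464 recomputed values, all of results under 0.1 in size. With library size alone these were *Tbx5* (−0.041), *Kcna5* (−0.019), *Kcnj5* (−0.013) and *Kcnk3* (−0.063). Over each mouse left out, *Tbx5* ran from −0.052 to 0.14, *Kcna5* from −0.056 to 0.17, *Kcnj5* from −0.12 to 0.17, *Kcnk3* from −0.018 to 0.061 and *Stard10* from −0.14 to 0.14. The median of the second atrial list was 0.01 with the filter at a mean CPM of 5. Depth limits *Bmp10* at 0 or 1 count and *Sln* and *Mybphl* in vehicle mouse 3.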
